A study of Danio rerio with 18 samples.

Results

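The 6 genes of actin turnover and cell adhesion cfl1, cap2, pak2b, ptk2ab, rnd3b and actb2 were followed on 2-colour arrays of zebrafish larvae exposed to bisphenol-A (BPA), a monomer of polycarbonate plastic with weak estrogenic activity. The genes were chosen by symbol, with their differences between BPA-exposed and control larvae already known. These differences are therefore given as a description with standard errors and without a test. The 6 genes were carried by 11 probes of 22980 and by 196 spots of 23232, and the array names 9264 genes in all. Of these probes 3 named cfl1, 2 named pak2b, 3 named actb2 and 1 each named cap2, ptk2ab and rnd3b. One of the actb2 probes was printed 186 times.

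Exposure of wild-type fish began 3 hours after fertilization and lasted 7 days. The control group (Control) received the vehicle, 0.05% ethanol, and the exposed groups received 500, 1500 or 4500 µg/L BPA in the same vehicle (BPA_500, BPA_1500 and BPA_4500). Whole-larva RNA was labelled with Cy5 (50 pooled larvae per sample by the methods, whereas the labels speak of groups of 4 fish), and each array also held a Cy3-labelled reference RNA pooled from whole wild-type adults, mostly males. Every value below is thus a log2 ratio of larval over adult-reference signal, and a difference between groups is a difference of such mean ratios. In RNA of whole larvae, fewer cells of a type and less RNA per cell cannot be told apart.

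The 18 deposited scans held 16 different arrays, 4 of Control and 5, 3 and 4 of BPA_500, BPA_1500 and BPA_4500. Control replicates 4 and 5 shared 99.83% of their Cy5 foreground values and BPA_1500 replicates 3 and 4 shared 99.98%, so each pair was averaged and counted as 1 array. The median Cy3 background was 92 to 129 scanner units on 2 arrays of BPA_1500 and 2 of BPA_4500 and 162 to 247 units on the other 12. Over all probes, 707 (3.08%) passed an adjusted p of 0.05 at BPA_4500, 3 (0.0131%) at BPA_1500 and 0 at BPA_500, where 855 had an unadjusted p under 0.05 (limma, Benjamini-Hochberg adjustment). No measured marker of muscle (22 genes), epidermis (12), neurons (13) or leukocytes (9) passed this test at any concentration. With so few probes called over the whole array, this does not show that these cell types were unchanged. A count of stage markers by sign did not separate whole larvae from the adult reference. In Control, 5 of 12 measured larval markers of embryonic globin, lens, gut and cartilage stood above 0. Of the markers of adult gonad and female liver, 10 of 24 did so, which is the same share. The median over the larval markers was -0.05 to 0.29 on the control arrays, and over the adult ones -0.19 to -0.01. By adjusted p under 0.05 (limma), cryba4 was the only larval marker to pass, higher in larvae (0.98). Of the adult markers vtg3, vtg4, vtg6, dnd1, cldnd and zp3 passed as lower in larvae, and piwil1 and ca15b as higher.

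Actin filaments grow and shrink in a cycle. Monomers such as β-actin (actb2) join the filament, cofilin (cfl1) severs and depolymerizes its older part, and cyclase-associated protein (cap2) frees cofilin from the monomers so that they can be used again. In mammals, p21-activated kinases (pak2b) act below the small GTPases Rac and Cdc42 and restrain cofilin through LIM kinase, while Rnd3 (rnd3b) is a GTPase without hydrolytic activity that counteracts actomyosin contraction. Focal adhesion kinase (ptk2ab) sits where integrins tie the filaments to the extracellular matrix.

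In short, the brightest cfl1 probe and 1 pak2b probe had higher mean ratios in BPA-exposed larvae at all 3 concentrations, and cap2 did so at 1500 and 4500 µg/L. A second cfl1 probe (5469604) and the second pak2b probe had lower mean ratios at all 3, so no direction is given for either gene. The probes of ptk2ab and rnd3b, and the actb2 probe with 186 spots, had lower ratios at 4500 µg/L. The other actb2 probes differed there by less than their standard errors (0.05 ± 0.24 and 0.44 ± 0.46), so no direction is given for actb2 either. At BPA_4500, 3 of the 11 probes had all 4 arrays above all control arrays and 4 had all arrays below them. Over the whole array 5.59% of probes lay above and 2.86% below in this way, and nothing can be read from the comparison, since this contrast chose the genes. The corresponding counts were 3 above and 3 below at BPA_1500 (6.35% and 3.64% of all probes) and 1 above and 1 below at BPA_500 (0.866% and 0.796%).

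**Figure D1:**
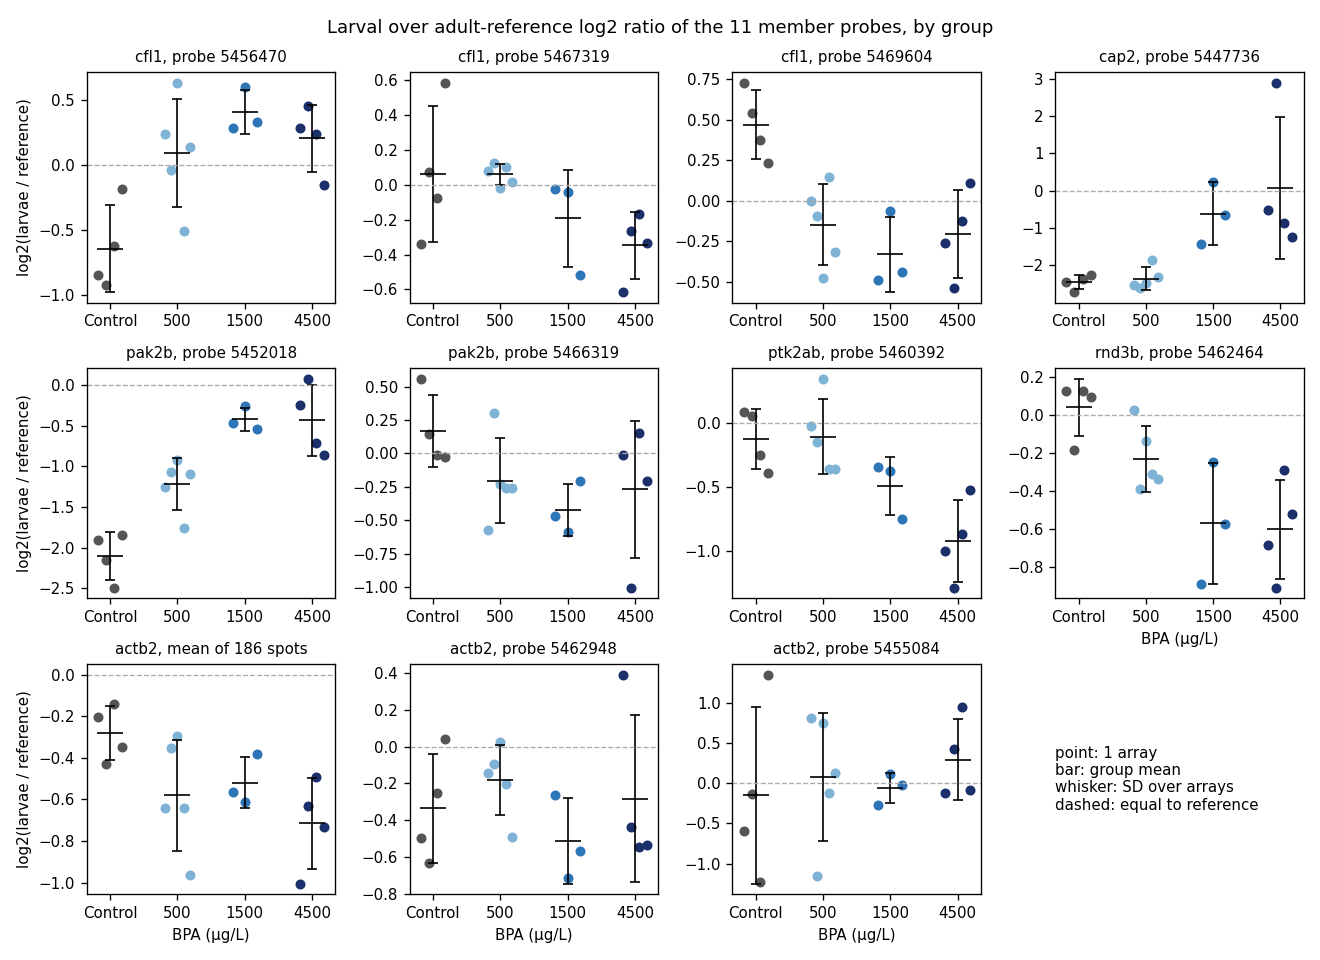
Log2 ratio of larval over adult-reference signal (vertical axis) on each of the 16 arrays for the 11 probes, by BPA concentration (horizontal axis). Points are arrays, bars are group means and whiskers are the SD over arrays. The pak2b probe 5452018 lay between -0.87 and 0.08 at 4500 µg/L and between -2.50 and -1.84 on the control arrays, while the second pak2b probe did not follow it.

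The brightest cfl1 probe (5456470), which stood at the 85.5th percentile of intensity, had log2 ratios of -0.85, -0.93, -0.62 and -0.18 on the 4 control arrays. They were 0.24, -0.03, 0.63, -0.51 and 0.14 at BPA_500, 0.29, 0.60 and 0.33 at BPA_1500, and 0.28, 0.46, 0.24 and -0.16 at BPA_4500. Control replicate 4 was the highest control array, and the lowest array of BPA_4500 lay just above it. The arrays of BPA_500 overlapped Control. The differences from Control were 0.74 ± 0.24 at BPA_500, 1.05 ± 0.27 at BPA_1500 and 0.85 ± 0.25 at BPA_4500 (log2 ± SE), which at BPA_4500 is 1.8-fold. The size did not grow from the lowest to the highest concentration by more than these errors. For the channels alone, the average log intensity of both was brought to a common distribution over arrays, with every ratio kept (Aquantile). The channels were not equalized separately. The difference at BPA_4500 was then 0.54 in the larval channel and -0.31 in the reference channel, which holds the same RNA on every array.

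The other cfl1 probes went differently. Probe 5469604 had ratios of 0.73, 0.54, 0.37 and 0.23 on the control arrays. They were -0.00, -0.10, -0.48, 0.15 and -0.31 at BPA_500, -0.49, -0.06 and -0.44 at BPA_1500, and -0.26, -0.54, -0.12 and 0.11 at BPA_4500. Every array of every BPA group lay below every control array, with differences of -0.62 ± 0.21, -0.80 ± 0.24 and -0.67 ± 0.22 from BPA_500 to BPA_4500 (log2 ± SE). The array's own annotation names this probe cfl1, as it does the brightest one, and the signs of the pair were opposite at each concentration. The third probe (5467319, listed on the array as cfl2l) differed by -0.00 ± 0.21, -0.25 ± 0.24 and -0.41 ± 0.22, and its arrays overlapped those of Control in all 3 comparisons. Both of these probes were dimmer, with a median larval signal of 2.2 times the local background for 5469604 and 2.12 times for 5467319, against 3.63 times for the brightest probe. The authors kept a ratio for 5469604 on 8 of the 18 scans and for 5467319 on 9, and on all 18 for the brightest probe.

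For cap2 the control arrays gave -2.45, -2.71, -2.38 and -2.25, the lowest control mean of the 6 genes. The ratios were -2.52, -2.62, -2.46, -1.85 and -2.32 at BPA_500, and -1.43, 0.24 and -0.66 at BPA_1500. At BPA_4500 they were -0.51, 2.89, -0.86 and -1.24. The arrays of BPA_500 overlapped Control, and all arrays of the higher concentrations lay above it. The differences were 0.09 ± 0.57, 1.83 ± 0.65 and 2.52 ± 0.61 (log2 ± SE). One array carried much of the largest difference: on BPA_4500 replicate 2 the larval signal was 45.3 times the local background and the reference signal 16.4 times, whereas on the other 15 arrays the larval signal was 1.19 to 6.16 times the background. Without that array the difference at BPA_4500 was 1.58 ± 0.32.

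The larval signal of cap2 was close to background on most arrays, with a median of 1.52 times background against 2.2 times over all probes and arrays, and the reference signal had a median of 4.1 times. A ratio this low is set in part by how the background is removed. With no background correction the cap2 difference was 1.37 at BPA_4500 and 0.70 at BPA_1500. The 200 spots nearest to cap2 in the order of spot IDs also had positive median differences, 0.73 at BPA_4500 and 0.48 at BPA_1500, and the part of position or print order in the cap2 values was not tested beyond subtracting the local median, which gave 2.00 ± 0.52 and 1.46 ± 0.56.

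The brighter pak2b probe (5452018) behaved more evenly over arrays. Its ratios were -1.91, -2.15, -2.50 and -1.84 in Control. They were -1.25, -1.07, -0.93, -1.76 and -1.10 at BPA_500, -0.47, -0.26 and -0.54 at BPA_1500, and -0.24, 0.08, -0.71 and -0.87 at BPA_4500. All arrays of all BPA groups lay above all control arrays, although BPA_500 replicate 4 was close to them. The differences were 0.88 ± 0.24, 1.68 ± 0.27 and 1.66 ± 0.25 (log2 ± SE), or 3.17-fold at BPA_4500. The differences at the 2 higher concentrations were alike within their errors. In the larval channel alone the difference at BPA_4500 was 1.11, and in the reference channel it was -0.56.

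The larval signal of this probe was also dim, 1.27 to 3.09 times the local background over the 16 arrays. With no background correction the difference was 0.63 at BPA_4500, and with plain subtraction it was 1.21. The second pak2b probe (5466319), listed on the array under the same clone name wu:fc52b03, had ratios of -0.01, -1.01, 0.15 and -0.21 at BPA_4500 and 0.56, 0.15, -0.01 and -0.03 in Control. It differed by -0.37 ± 0.25, -0.59 ± 0.28 and -0.44 ± 0.26 from BPA_500 to BPA_4500, in the opposite direction to the first probe, and was as dim. The authors kept ratios for 11 and 4 of the 18 scans for the brighter and the dimmer probe.

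**Figure D2:**
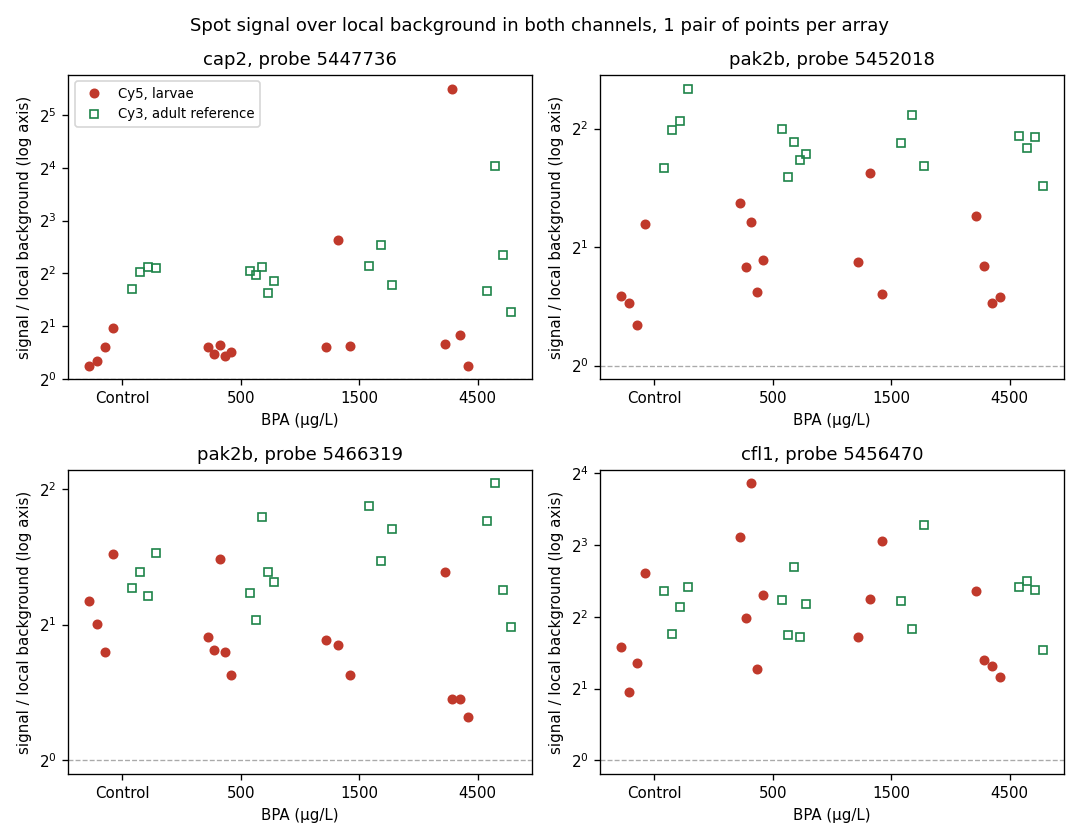
Spot signal divided by local background (log axis) in the larval Cy5 channel (filled circles) and the adult-reference Cy3 channel (open squares), 1 pair of points per array, by BPA concentration. The cap2 spot on BPA_4500 replicate 2 reached 45.3 times background in Cy5, and the Cy5 points of the pak2b probe 5452018 stayed between 1.27 and 3.09 times background.

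Disagreement between probes of a gene was common on this array. Of 1785 genes with more than 1 probe, 1007 (56.4%) had probes of both signs in the difference between BPA_4500 and Control. The median range between a gene's probes was 0.55 on the log2 scale with an upper quartile of 0.92. The range between the outermost probes was 1.52 for cfl1 (3 probes) and 2.1 for pak2b (2 probes). These ranges cannot be judged against the quartile, since this contrast chose the genes and the number of probes was not matched. Which transcript each probe read was not tested, as the probe sequences were not analysed here.

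The ratio for ptk2ab was lower at the highest concentration. Its single probe (5460392) was bright and had a kept ratio on all 18 scans. The control arrays gave 0.08, 0.06, -0.25 and -0.39. The values were -0.02, -0.15, 0.34, -0.36 and -0.36 at BPA_500, -0.35, -0.37 and -0.75 at BPA_1500, and -1.002, -1.29, -0.87 and -0.52 at BPA_4500. Only at BPA_4500 did all arrays lie below all control arrays. The differences were 0.02 ± 0.22, -0.36 ± 0.25 and -0.79 ± 0.23 (log2 ± SE), the last being a 1.73-fold lower ratio. At BPA_4500 the larval channel differed by -0.51 and the reference channel by 0.29.

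For rnd3b the probe 5462464 gave 0.13, -0.18, 0.12 and 0.09 on the control arrays. It gave 0.02, -0.39, -0.14, -0.31 and -0.34 at BPA_500, -0.89, -0.25 and -0.57 at BPA_1500, and -0.68, -0.91, -0.29 and -0.52 at BPA_4500. The arrays of both higher concentrations lay below all control arrays, and those of BPA_500 overlapped them. The differences were -0.27 ± 0.20, -0.61 ± 0.23 and -0.64 ± 0.21 (log2 ± SE). Part of this was shared with spots near it in ID order, whose median difference was -0.27 at BPA_4500 and -0.30 at BPA_1500. With the local median in ID order subtracted, the rnd3b differences were -0.43 ± 0.19 and -0.29 ± 0.21. A further probe (5463746) carries rnd3, an older name of both rnd3a and rnd3b, and was not counted. It differed by -0.06 at BPA_4500. Spots near other single-spot probes also differed from Control. At BPA_1500 their medians were -0.32 for pak2b probe 5466319, -0.175 for ptk2ab and -0.15 for cfl1 probe 5467319. At BPA_4500 they were 0.04, -0.14 and -0.20 in the same order. For the brightest cfl1 probe and pak2b probe 5452018 they were 0.21 and 0.11 at BPA_1500.

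The cytoplasmic β-actin gene actb2 was read by 186 spots of 1 probe on every array. The spot means were -0.21, -0.43, -0.14 and -0.35 in Control. They were -0.64, -0.35, -0.30, -0.64 and -0.96 at BPA_500, -0.57, -0.61 and -0.38 at BPA_1500, and -1.005, -0.63, -0.49 and -0.73 at BPA_4500. All arrays of BPA_4500 lay below all control arrays, while the other groups overlapped Control. The differences were -0.30 ± 0.20, -0.24 ± 0.22 and -0.43 ± 0.21 (log2 ± SE).

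Repeat spots of 1 probe show the spread between its spots, which here holds the differences between runs of spots given below besides single-spot error. The probe stood at the 97.8th percentile of intensity, so its spread does not give the error of the dim cap2 and pak2b probes. Within an array the SD over the 186 spots was 0.14 to 0.55 on the log2 scale, with a median of 0.216, and was largest on BPA_4500 replicate 1. The SD of the array means within groups was 0.206 when pooled over the groups. A single actb2 spot had a median SD over arrays of 0.306, against 0.41 for the median probe. By spot, 184 of 186 had a lower mean ratio at BPA_500 than in Control, 167 at BPA_1500 and 175 at BPA_4500, but spots of 1 array share its RNA and are not replicates of a condition.

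**Figure D3:**
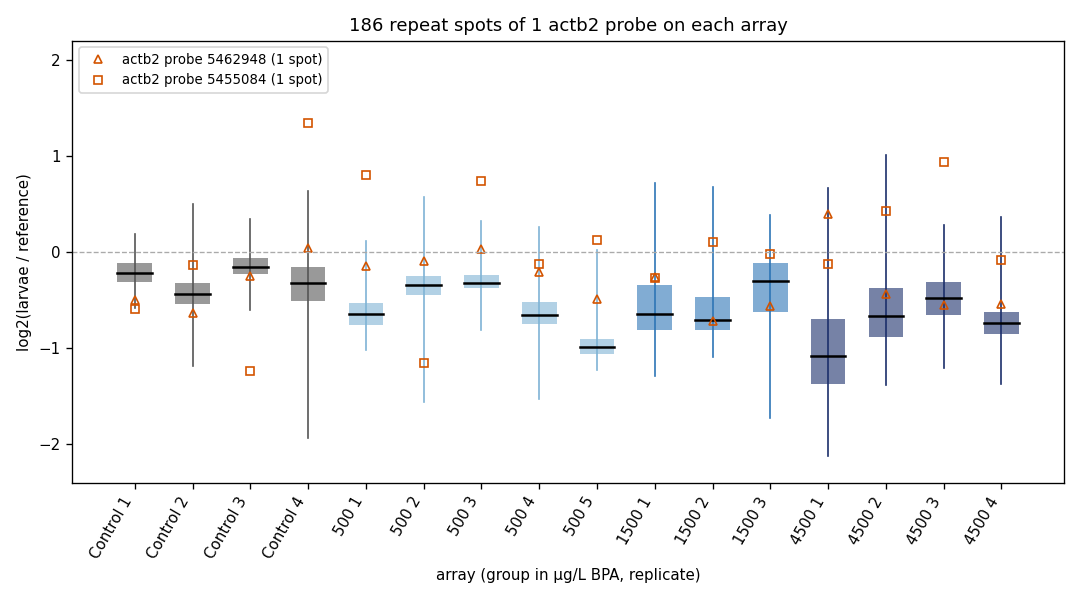
Log2 ratio of larval over adult-reference signal of the 186 repeat spots of 1 actb2 probe on each of the 16 arrays, with boxes for the quartiles, black lines for the medians and thin lines for the whole range. Open symbols are the other actb2 probes, with 1 spot each. The medians of BPA_4500 lie lower than those of Control, and the quartile box is widest on BPA_4500 replicate 1.

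Most of the repeat spots lie in 4 runs of 42 to 44 spots in ID order. Their difference between BPA_4500 and Control was -0.24 in the first run, -0.33 in the second, -0.52 in the third and -0.67 in the fourth, and -0.36 over 13 scattered spots. On BPA_4500 replicate 1 the mean of the fourth run was -1.58 and that of the scattered spots -0.15. At BPA_500 the 4 runs lay closer together, between -0.27 and -0.35. The same probe thus gave unlike differences in different runs of the ID order at the higher concentrations. The place of these runs on the array was not checked. Other probes with repeat spots had a median SD within arrays of 0.19 for gapdh (14 spots), 0.456 for vtg3, 0.526 for cxcr4a and 0.553 for ccnd1 (15 spots each).

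The other actb2 probes differed from Control by less than their standard errors at each concentration. Probe 5462948 had ratios of 0.39, -0.44, -0.55 and -0.54 at BPA_4500 and -0.50, -0.63, -0.25 and 0.04 in Control, a difference of 0.05 ± 0.24, which was -0.17 ± 0.22 without BPA_4500 replicate 1. At BPA_1500 it differed by -0.18 ± 0.26 and at BPA_500 by 0.15 ± 0.23. Probe 5455084 had -0.12, 0.43, 0.94 and -0.08 at BPA_4500 and -0.60, -0.13, -1.24 and 1.35 in Control, a difference of 0.44 ± 0.46, against 0.09 ± 0.50 at BPA_1500 and 0.23 ± 0.44 at BPA_500. Both overlapped Control at every concentration. In the larval channel the 186-spot probe differed by -0.9995 at BPA_4500 and in the reference channel by -0.57, a lower signal in both channels.

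**Figure D4:**
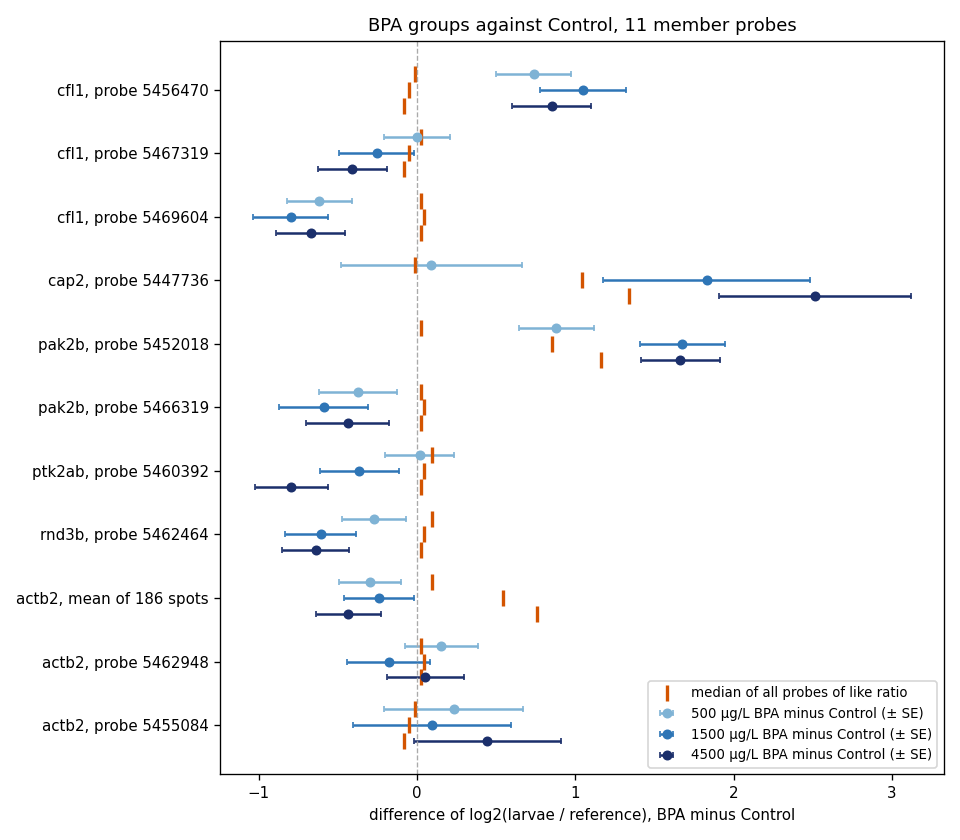
Difference of log2 ratio between each BPA group and Control (horizontal axis, points with ± SE from the fit over 16 arrays) for the 11 probes. Orange ticks mark the median difference of all probes with a like larval over reference ratio. The points of cap2 and of pak2b probe 5452018 lie furthest to the right, and their ticks at 1500 and 4500 µg/L also lie well above 0.

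Probes with a low larval ratio had higher ratios at the upper concentrations over the whole array, and cap2 and pak2b belong to these. Probes were binned by their mean ratio on the BPA_500 arrays, which entered neither side of the comparisons at 1500 and 4500 µg/L. Of 232 probes with a ratio below -2, the bin of cap2, 100% were higher at BPA_4500 than in Control, with a median difference of 1.34 and quartiles of 1.09 and 1.52. Of 1069 probes between -2 and -1, the bin of pak2b probe 5452018, 99% were higher, with a median of 1.16 and quartiles of 0.90 and 1.42. The pak2b value of 1.66 and the cap2 value of 2.52 lay above these upper quartiles, from which nothing can be read, since this contrast chose the genes. Without BPA_4500 replicate 2 the cap2 value was 1.58, whereas the quartiles of its bin include that array.

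At BPA_1500 the medians of the same bins were 1.04 and 0.85, against 1.83 for cap2 and 1.68 for pak2b. The SD over all probes was 0.703 to 0.790 on the control arrays, 0.548 to 0.750 at BPA_500, 0.567 to 0.638 at BPA_1500 and 0.609 to 0.647 at BPA_4500. The other genes lay among probes with medians near 0: the bins of ptk2ab, rnd3b and cfl1 probe 5469604 had a median of 0.02 at BPA_4500, and that of the brightest cfl1 probe -0.08. The 186-spot actb2 probe stood in a bin whose median was 0.76 at BPA_4500, and its own difference was -0.43.

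**Figure D5:**
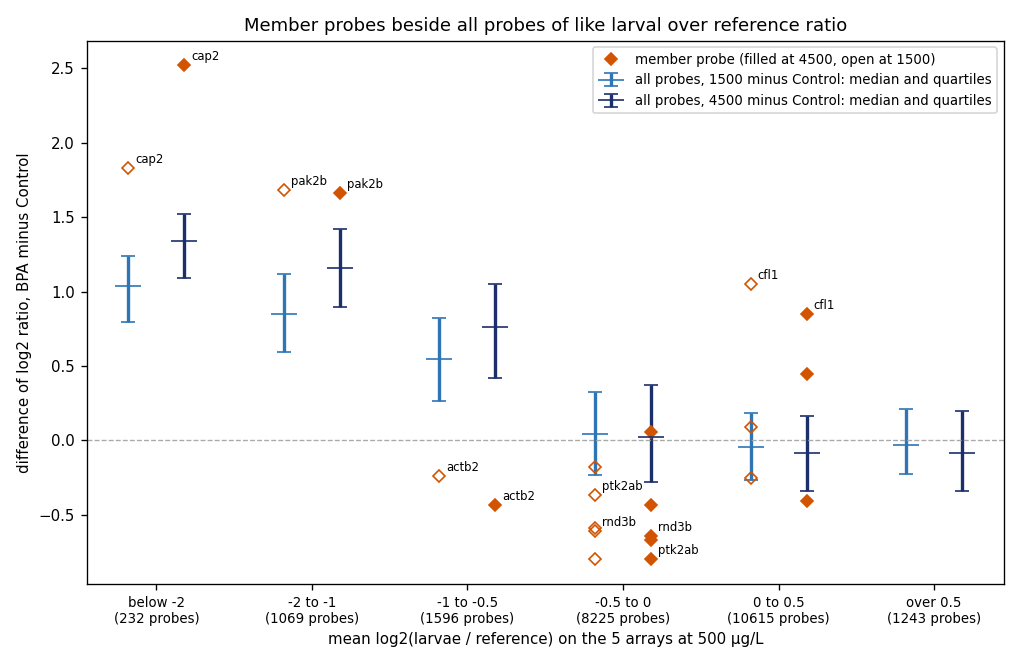
Difference of log2 ratio between BPA and Control (vertical axis) for all probes, binned by their mean larval over reference ratio on the 5 BPA_500 arrays (horizontal axis), as median and quartiles at 1500 and 4500 µg/L. Diamonds are the 11 probes of the 6 genes, with the brightest probe of each named. The median of all probes was 1.34 in the lowest bin at 4500 µg/L and near 0 from a ratio of -0.5 upward.

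The values were also computed within the 12 arrays whose Cy3 background was 150 units or more, of which 2 were of BPA_4500 and 1 of BPA_1500. There the differences at BPA_4500 were 0.71 ± 0.33 for the brightest cfl1 probe, 1.57 ± 0.29 for cap2, 1.55 ± 0.31 for pak2b probe 5452018, -0.64 ± 0.28 for ptk2ab, -0.64 ± 0.24 for rnd3b and -0.59 ± 0.26 for the 186-spot actb2 probe. Each had the sign it had on all 16 arrays, from which nothing can be read. This contrast chose the genes, and the 12 arrays, with every control array, are part of the 16.

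Control larvae were then set against the adult reference, although the count of stage markers above 0 did not separate larvae from adults. This level, unlike the differences above, was tested over all probes. For the 11 probes the test decides nothing, since the same control mean entered the differences that chose the genes. Their calls and p-values are given as a description. Larval RNA was always Cy5, so the stage and the dye cannot be told apart. Of all probes 4253 (18.5%) passed, 1263 (5.5%) higher and 2990 (13%) lower in larvae. Of the 11 probes, 4 passed. All control arrays lay above 0 for 1 probe and below 0 for 4, against 17% and 20.1% of all probes. The ratio of pak2b probe 5452018 was 4.28-fold lower than the reference (log2 -2.10 ± 0.18, adjusted p = 2.63e-07, limma over all probes, all 4 control arrays below 0), and that of cap2 5.45-fold lower (log2 -2.45 ± 0.43, adjusted p = 0.000363). The brightest cfl1 probe was lower (-0.64 ± 0.18, adjusted p = 0.0144, limma) and cfl1 probe 5469604 higher (0.47 ± 0.15, adjusted p = 0.0403, limma). At BPA_4500 the mean ratios of these probes were 0.21 and -0.20. The control means are those subtracted in the differences above, so their opposite signs are not a separate disagreement. Without Control replicate 1, 2 or 3 neither cfl1 call held, and with no background correction the level of cap2 was -1.001 (adjusted p = 0.0582, limma) and that of pak2b probe 5452018 -0.86, so the folds of these dim probes rest on how background was removed. The second pak2b probe (5466319) was not lower, at 0.17 ± 0.18 (adjusted p = 0.594, limma), so the low level is that of 1 probe. The remaining probes also missed the threshold. Their levels were -0.13 ± 0.16 for ptk2ab, 0.04 ± 0.15 for rnd3b and 0.06 ± 0.155 for cfl1 probe 5467319. For actb2 they were -0.28 ± 0.15 (186-spot probe), -0.34 ± 0.17 (5462948) and -0.15 ± 0.33 (5455084).

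Over the 16 arrays the brightest probes of the 6 genes fell into opposing sets, given here as a description across arrays that share groups and print positions. The differences between groups that chose the genes also enter these coefficients, so the sets are no further result. For cfl1, pak2b and actb2 they hold for the brightest probe only. The other probes of cfl1 and pak2b differed from Control in the opposite direction at BPA_4500. Those of actb2 differed by less than their standard errors. The ratio of pak2b correlated with that of cfl1 at Pearson's r of 0.857 and with cap2 at 0.744, and cfl1 with cap2 at 0.517. In the other set ptk2ab correlated with rnd3b at 0.662, and actb2 with ptk2ab at 0.474 and with rnd3b at 0.536. Between the sets the coefficients were negative, from -0.332 for cap2 and actb2 to -0.816 for cap2 and ptk2ab. The genes most like each over the 16 arrays were rpusd4 (0.883), thrap3b (0.875) and tnni4b.2 (0.86) for cfl1, and mrpl13 (0.92), hoxb10a (0.912) and si:ch211-277g23.5 (0.903) for cap2. For pak2b they were psmd4b (0.874), lig1 (0.872) and adh5l (0.871), and for ptk2ab si:ch211-222k6.2 (0.893), pde6gb (0.889) and rbbp7 (0.87). For rnd3b they were hdac1 (0.876), mapk7 (0.863) and matn4 (0.853), and for actb2 jdp2b (0.832), btr02 (0.773) and gypc (0.771). The IDs of mrpl13 and hoxb10a, 5447750 and 5447718, lie near that of cap2, 5447736.

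The wider actin and adhesion machinery was read from 4 lists with 249 genes besides the 6, of which 134 were measured. At BPA_4500, 2 of 134 were called higher and none lower, with 28 at an unadjusted p under 0.05 (limma), or 20.9% against 21.8% of all probes. By adjusted p, 639 probes (2.78%) were higher and 68 (0.296%) lower over the whole array. Of the 9264 named genes, each read by its brightest probe as the list genes were, 229 were called in either direction. The median difference over the 134 genes was 0.02 and over all 9264 named genes -0.02. At BPA_1500 no list gene was called (11 unadjusted, or 8.21% against 11.2% of all probes). None was called at BPA_500 (3 unadjusted, or 2.24% against 3.72% of all probes).

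By role, 1 of 32 genes of actin monomers, turnover and capping was called at BPA_4500 and 1 of 35 of branching, bundling and crosslinking. None of 34 genes of focal adhesion and integrin signaling (6 unadjusted) was called by limma. The actin gene actc2 had ratios of 0.40, 1.44, -0.28 and -1.50 at BPA_4500 and -2.56, -2.53, -2.51 and -1.45 in Control. Its difference was 2.27 ± 0.47 (adjusted p = 0.0224, limma), and the lowest BPA_4500 array overlapped Control. This probe too belonged to those between -2 and -1, whose median difference was 1.16. Its adjusted p ranged from 0.00266 to 0.242 over 27 alternatives, and the call was lost without Control replicate 1, 2 or 3 or BPA_4500 replicate 1 or 2. Within the 12 arrays of higher Cy3 background it differed by 1.71 (adjusted p = 0.242, limma).

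The other called gene was evlb, of the Ena/VASP family that promotes filament elongation. It had 0.60, 0.44, 0.76 and -0.16 at BPA_4500 and -0.22, -0.99, -0.49 and -0.16 in Control, a difference of 0.87 ± 0.24 (adjusted p = 0.0496, limma). The lowest array of BPA_4500 lay only just above the highest control array. Its adjusted p ranged from 0.0088 to 0.347 over 28 alternatives, 22 of which lost the call, among them the loss of any array but Control replicate 4, BPA_1500 replicate 2 or BPA_4500 replicate 4. Within the 12 arrays of higher Cy3 background evlb differed by 0.68 (adjusted p = 0.347, limma). Next in order of p, vil1, the villin that bundles actin in brush-border microvilli, differed by -0.92 ± 0.25 (adjusted p = 0.0536, limma). The focal adhesion scaffold pxna (paxillin) differed by 1.15 ± 0.32 (adjusted p = 0.0538, limma).

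At BPA_1500 the list genes with the smallest p were pxna (0.98 ± 0.34), coro1a, an actin-binding coronin of leukocytes (-1.03 ± 0.36), pak1, a kinase of the family of pak2b (0.78 ± 0.29), and arpc3, a subunit of the Arp2/3 complex that starts filament branches (-0.61 ± 0.23), with adjusted p from 0.311 to 0.351 (limma). The median ratio over the 9 measured leukocyte markers, a list that holds coro1a itself, was -0.66 to -0.28 on the BPA_1500 arrays and -0.27 to 0.21 on the control arrays, and its part in the coro1a value was not tested. At BPA_500 the smallest p were those of arpc3 (-0.61 ± 0.20) and actc2 (1.17 ± 0.45), each with an adjusted p of 1 (limma).

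Against the adult reference, 7 of the 134 list genes (5.22%) were higher and 14 (10.4%) lower in control larvae (limma, over all probes), against 5.5% higher and 13% lower of all probes. Of the 9264 named genes, each read by its brightest probe, 1550 were called in either direction. Among the lower were actc2 (-2.26 ± 0.33), the atypical GTPase rnd1a, a relative of rnd3b (-2.28 ± 0.29), and the cortactin relative hcls1 (-1.61 ± 0.22). The actin elongator enah was at -1.30 ± 0.22, the nucleator spire1a at -1.29 ± 0.22, the myosin light chain myl12.1 at -1.26 ± 0.26 and rhoub at -0.92 ± 0.22. Of the adhesion genes, ilk (integrin-linked kinase, -0.89 ± 0.24), pxna (-0.83 ± 0.22) and the caveolin cav2 (-0.67 ± 0.20) were lower. Higher in larvae were the muscle cofilin cfl2 (0.53 ± 0.17), rhoua (0.84 ± 0.18), the bundler pls1 (0.76 ± 0.21), talin tln1 (0.65 ± 0.15), the Cdc42-binding kinase cdc42bpab (0.59 ± 0.20), arpc3 (0.57 ± 0.15) and ptk2aa, the paralog of ptk2ab (0.54 ± 0.17). The calls of actc2, hcls1, enah, spire1a, rnd1a, rhoub, rhoua and myl12.1 held under every alternative run on them, and each of the other named calls was lost under at least 1. Leaving out Control replicate 1 ended the calls of cfl2, pls1, cdc42bpab, ptk2aa, ilk and cav2, and leaving out replicate 2 those of ilk, cav2 and pxna. Without replicate 3 those of cfl2, pls1, cdc42bpab, ptk2aa, arpc3 and tln1 were lost, and without replicate 4 those of cfl2, pls1, cdc42bpab, ptk2aa and cav2.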

How the data were processed

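Larval RNA (Cy5) and adult-reference RNA (Cy3) were hybridised to spotted oligonucleotide arrays. The authors deposited scanner intensity values (GenePix Pro, foreground mean and local background median of each channel) without normalization, and log2 ratios after Lowess for spots that were not flagged, 5127 to 19980 per scan. In 1 file 16654 shifted lines were corrected. Groups follow the sample labels.

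Background was corrected by normexp (offset 50), and each array was then loess-normalized (limma 3.58.1, R 4.3.3). Every spot was used, spots of 1 accession and repeated scans were averaged, and group means were fitted with 1 spread over all 16 arrays. Calls are at an adjusted p under 0.05 (Benjamini-Hochberg, 22980 probes). The paper states that the experiment was run several times to gain enough material for the biological replicates. Whether each replicate came from a separate clutch is not given, so p-values measure the spread between these samples. The few arrays per group limit the precision.

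Symbols came from the array's names and a RefSeq gene table, for 11724 spots. The files give no genome build, so positions in the genome are not given. A gene's brightest probe stands for it, with the others beside it. Of the lists, called genes or up to 4 with the smallest p are named, at most 3 in each direction per list for the level, and the 3 genes with the highest r for each gene's brightest probe. The separate counts of 1 list are not reported here. The genes and lists were chosen with earlier results of these data known. The fit was tested on simulated data. Alternatives covered background, scaling, filters, spot position, Cy3 background, weights, replicate block, each array left out and the methods' tests. Files were parsed and plots drawn in Python 3.11.15 with numpy 2.4.6, pandas 2.3.3 and matplotlib 3.10.9.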

Additional observations from a re-analysis of the deposited data

Results flagged for a closer look

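Of 33 sets of arrays (11 probes in 3 groups of 4 or 5 arrays), 2 held an array far from the others, where chance gives about 1 in 20 sets. For actb2 probe 5462948, BPA_4500 replicate 1 had a log2 ratio of 0.39, against -0.55 to -0.44 on the other 3 arrays of that group, and this same array had the widest spread over the 186 spots of the other actb2 probe. For rnd3b, Control replicate 2 had a ratio of -0.18, against 0.09 to 0.13 on the other control arrays. The cap2 ratio of 2.89 on BPA_4500 replicate 2 was not far enough from the next array, relative to the range of the group, to be marked.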

How the results depend on the processing

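Of 936 differences of the 11 probes from Control under alternatives, 15 moved by at least 1 SD between arrays and only differences between -0.00 and 0.23 changed sign. Many of the 936 could not move. Aquantile kept every ratio, and leaving out an array of a group outside the comparison keeps the difference. The share that moved is therefore no measure of stability. Of 311 levels, 12 calls were lost and 1 was gained. The limits are dim larval signals near background, few arrays and uneven Cy3 background. The settings without dimmer probes or without spots lacking a ratio tested fewer probes, and the cause of the other changes was not tested.

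The 707 calls of 22980 probes at BPA_4500 became 1 of 3878 with spots lacking a deposited ratio left out. They became 71 of 11490 without dimmer probes and 0 of 3878 with the deposited ratios. On all 22980 probes they became 4 with no background correction and 3 with plain subtraction. Scale normalization between arrays (chosen after seeing the data) gave 39. All scans taken separately gave 1644, array weights 1415 and low Cy3 background as a term 18. The arrays of higher Cy3 background (chosen after seeing the data) gave 2, and corrected position gave 275. The methods' t-test gave 0 after adjustment, or 63 after their ANOVA. The 2 list genes became 0 under each of these except 9 with separate scans, 8 with weights and 1 with position corrected, and 1 with median centring. Of the 2, neither was tested on the 3878 probes, and actc2 was not tested without dimmer probes. Aquantile left every ratio as it was.

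The 3 calls at BPA_1500 became 8 with median centring, 361 with separate scans, 643 with weights, 207 on the arrays of higher Cy3 background (1 array in the group, assumed to vary like the others) and 51 with the methods' ANOVA and t-test, and 0 under the other settings named except Aquantile, with 1 list gene called with weights. At BPA_500 the methods' ANOVA and t-test gave 23.

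For Control against the reference, the 4253 calls of 22980 probes became 783 of 3878 without spots lacking a ratio and 1984 of 11490 without dimmer probes. They became 720 of 3878 with deposited ratios, of which 68.9% were higher in larvae (29.7% of the 4253), and 6524 of 22980 with separate scans. The 21 list genes became 3, 13, 5 and 35 in the same order, and 12 with plain subtraction. Of the 21, only pls1, rhoab, rhoua and ptk2aa were tested under every setting with fewer probes. The 4 called probes of the 6 genes became 1 without spots lacking a ratio, 2 without dimmer probes, 2 with no background correction and 1 with deposited ratios. Of these, pak2b probe 5452018 and cfl1 probe 5469604 were not tested under any setting with fewer probes. The cap2 probe was tested only in the one without dimmer probes.

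Replicate numbers did not pair arrays across groups (21 same-numbered pairs, median r of 0.00 between deviations, from -0.28 to 0.30). With the replicate block, 393 probes and 1 list gene were called at BPA_4500 and 0 probes at BPA_1500, and the block ended the level call of cfl1 probe 5469604 (0.47).

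With each array left out in turn, calls ranged from 25 (without BPA_4500 replicate 2) to 2888 (without BPA_4500 replicate 4) at BPA_4500, with 122, 104, 88 and 1121 without Control replicates 1 to 4, and 47 and 234 without BPA_4500 replicates 1 and 3. They ranged from 0 to 10 at BPA_1500 and from 2861 to 4453 against the reference, list genes from 0 to 22 at BPA_4500 and from 12 to 24 against the reference, and called probes of the 6 genes from 2 to 4.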
